A study of Homo sapiens with 6 samples.

Results

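The genes described here are Trp53, which encodes the transcription factor p53, and 9 genes that p53 is known to switch on. They are 10 of the 54532 gene IDs in the deposited tables, taken by Ensembl ID, and all 10 were found in each of the 6 libraries. Under the mouse gene names of those IDs they are Trp53 (ENSMUSG00000059552), Mdm2 (ENSMUSG00000020184), Ccng1 (ENSMUSG00000020326), Cdkn1a (ENSMUSG00000023067), Btg2 (ENSMUSG00000020423), Bax (ENSMUSG00000003873), Bbc3 (ENSMUSG00000002083), Gdf15 (ENSMUSG00000038508), Sesn1 (ENSMUSG00000038332) and Zmat3 (ENSMUSG00000027663). RNA-seq libraries were made from total RNA of A549, an established human lung adenocarcinoma line, with 2 libraries in each of the groups labelled NC, sh1 and sh4. The series title and design text describe a knockdown named DSTY and an NC group. Reading NC as the control and sh1 and sh4 as knockdown groups rests on that text, since the abbreviations are not explained, and the labels add no dose, time, clone or construct. The labels do not say whether the libraries of a group came from separate cultures, so p-values measure only the spread between these libraries, which may be technical. All IDs carry the mouse prefix ENSMUSG although the cells are labelled human, so the organism behind the values is unresolved. A group name below means the libraries with that label. Cell identity and the lowering of the targeted gene were not analysed here, because no table used here pairs those IDs with names.

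p53 is a tumour suppressor that responds to DNA damage and other stress by binding DNA and activating genes for cell cycle arrest, apoptosis and repair. Its activity is set largely at the level of the protein, which Mdm2 marks for degradation, and Mdm2 is itself a p53 target, which closes a negative feedback loop. A549 cells are known to carry wild-type p53, and in lung adenocarcinoma the pathway is often lost by mutation. The p53 status of the cells behind these values was not examined, and their organism is unresolved. Only RNA was measured here, so the amount and activity of p53 protein were not.

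Among these genes, Cdkn1a, Gdf15 and Zmat3 were lower in both sh1 and sh4 than in NC, and Bax and Sesn1 were higher in both. The calls of Bax in both groups and of Sesn1 in sh1 were lost under some alternative processing, given below. The share of all IDs called in the same direction in both groups was not computed. Cdkn1a had 2.79-fold lower mean FPKM in sh1 and 4.89-fold lower in sh4, and Gdf15 8.21-fold lower in sh1 and 1.67-fold lower in sh4. Trp53 RNA itself did not pass the test in any comparison. FPKM counts fragments relative to gene length and to a depth term of the library, which here matched a median-of-ratios size factor and not the read total. Differences were tested by limma on log2(FPKM + 1) over 12755 IDs in 1 fit, with a call at a Benjamini-Hochberg adjusted p below 0.05 over all of them (n = 2 against 2 libraries throughout). These fold changes understate the change of genes with low FPKM, so the ratio of mean FPKM is given beside the larger ones. Recovered reads totalled between 14999786 and 18011798 per library, and the 10 genes held between 44 and 1796 reads each in a library.

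**Figure D1:**
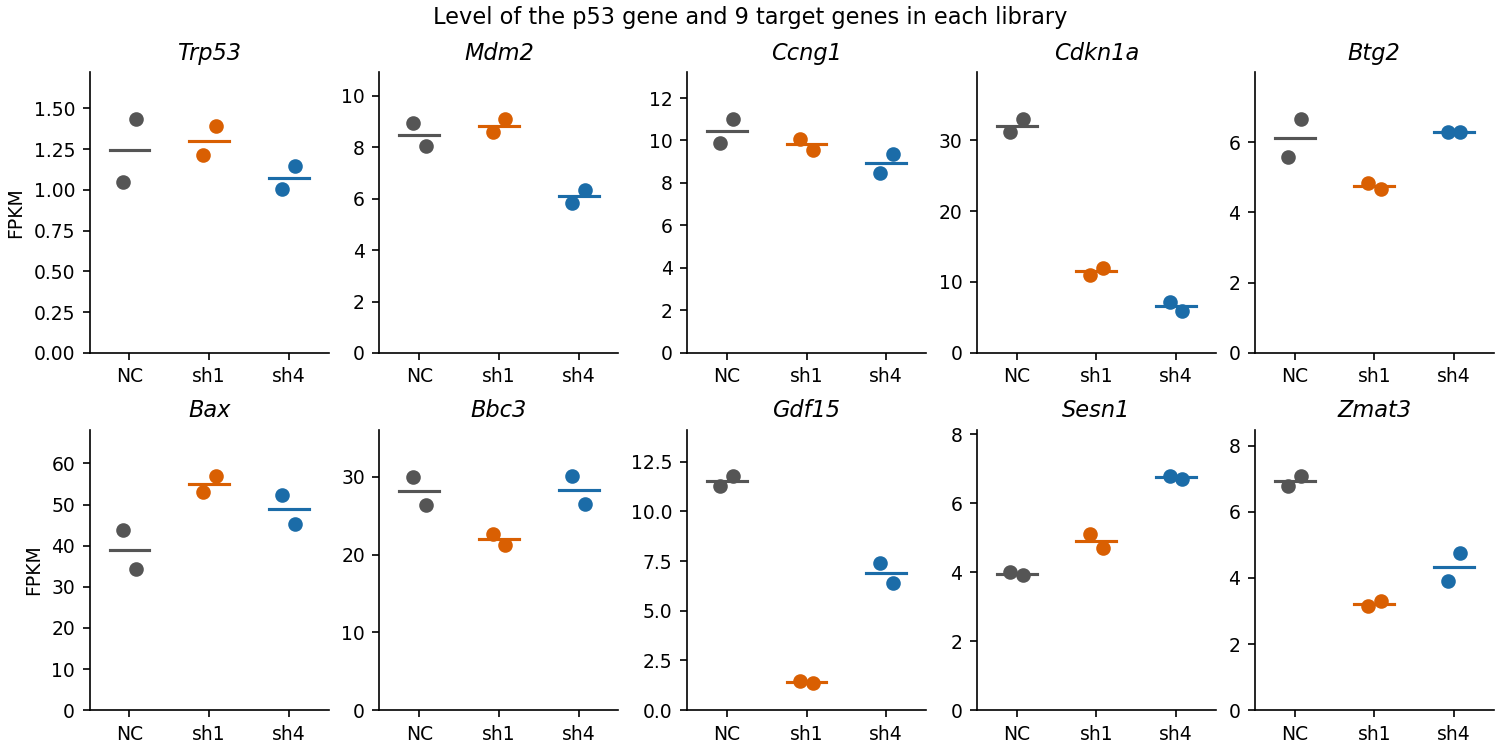
Level in FPKM (y axis, from 0, own scale in each panel) of the 10 genes in the groups NC, sh1 and sh4. Points are single libraries and bars are group means of 2 libraries. The 3 groups do not overlap for Bax, Cdkn1a, Gdf15, Sesn1 and Zmat3. Single pairs of groups did not overlap for 78% to 82.7% of all IDs. The Trp53 libraries lie between 1.00 and 1.43 FPKM, with NC spanning most of that range.

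Calls were common over the whole table, and the counts of p53 genes lay close to that background. For sh1 against NC, 5 of the 10 genes were lower and 2 higher, where 33.2% of all IDs were called lower and 32.4% higher. For sh4 against NC, 5 were lower and 2 higher, where 33.2% of IDs were called lower and 35% higher. The median log2 fold change of the 10 genes was -0.19 in sh1 and -0.16 in sh4, beside medians of -0.0099 and 0.0054 over all IDs tested. By size alone, the median of their absolute changes was 0.33 for sh1 and 0.37 for sh4, beside 0.36 and 0.37 over the whole table. Libraries of sh1 and NC did not overlap for 7 of the 10 genes and for 82.3% of all IDs, and those of sh4 and NC for 7 genes and 82.7% of IDs. Both comparisons use the same NC libraries, so the values of sh1 and sh4 are given side by side and no agreement between them was tested. A change of at least 1 log2 unit was called for 2 of the 10 genes in sh1, Cdkn1a and Gdf15, both lower, where 4.3% of IDs fell that far. In sh4 it was called for Cdkn1a alone, where 4.19% of IDs fell that far. In bulk RNA, fewer cells of a type and less RNA per cell cannot be told apart.

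Trp53, the gene of the transcription factor itself, was the least abundant of the 10 genes in 5 of 6 libraries. Its level was 1.05 and 1.43 FPKM in NC, 1.21 and 1.39 in sh1, and 1.00 and 1.15 in sh4. Both sh1 libraries and the higher sh4 library lay within the range of the NC libraries, and the lower sh4 library just below it. These values rest on few reads, from 67 in the first NC library to 99 in the second sh1 library. In the first NC library the exact Poisson 95% interval ran from 0.813 to 1.33 FPKM, covering counting error only. Over the 6 libraries, 9.4% of the IDs tested had a lower mean than Trp53. The log2 fold change was 0.04 in sh1 (SE 0.13, 95% confidence interval -0.24 to 0.32, adjusted p = 0.79) and -0.11 in sh4 (SE 0.13, interval -0.39 to 0.17, adjusted p = 0.48). The sign in sh1 turned when libraries were brought to a common FPKM sum. Differences within these intervals were not detectable with these libraries. Trp53 is known to overlap the gene Wrap53 on the opposite strand, and the sources used here do not say whether reads were counted by strand.

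The feedback regulators Mdm2 and Ccng1 were called lower in sh4 and not in sh1, and the direct difference between sh4 and sh1 passed the test for Mdm2 only. Mdm2 encodes the ubiquitin ligase that binds p53 and marks it for degradation. Its level was 8.95 and 8.04 FPKM in NC, 8.58 and 9.10 in sh1, and 5.85 and 6.34 in sh4. Both sh4 libraries lay below every other library, while NC and sh1 overlapped. The log2 fold change of Mdm2 was -0.42 in sh4 (SE 0.07, adjusted p = 0.00021) and 0.05 in sh1 (SE 0.07, interval -0.11 to 0.21, adjusted p = 0.55). The sign of the sh1 value turned under both other scalings of the libraries. Ccng1 encodes cyclin G1, which is known to recruit a phosphatase to Mdm2. Its level was 9.90 and 11.01 FPKM in NC, 10.1 and 9.54 in sh1, and 8.46 and 9.37 in sh4. The sh4 libraries were below both NC libraries, with 9.37 and 9.90 FPKM as the nearest values. By limma, Ccng1 had a log2 fold change of -0.21 in sh4 (SE 0.08, adjusted p = 0.031) and -0.08 in sh1 (SE 0.08, interval -0.25 to 0.09, adjusted p = 0.37). The sh4 call was lost without the second NC library (-0.14, adjusted p = 0.21) and without the first sh4 library (-0.14, adjusted p = 0.20). It was also lost when libraries were brought to a common FPKM sum (-0.17, adjusted p = 0.081) and with no filter on low values (adjusted p = 0.11).

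Of the cell cycle arrest genes, Cdkn1a fell in both groups and Btg2 in sh1 alone by the test. Cdkn1a encodes p21, an inhibitor of cyclin-dependent kinases and the best known arrest target of p53. Its level was 31.1 and 33.0 FPKM in NC, 10.9 and 12.03 in sh1, and 7.13 and 5.97 in sh4. The 3 groups did not overlap, with NC highest and sh4 lowest. Against NC, Cdkn1a had a log2 fold change of -1.40 in sh1 (SE 0.08, adjusted p = 4.0e-09) and -2.13 in sh4 (SE 0.08, adjusted p = 1.0e-10). Its absolute change was larger than that of 95.8% of the IDs tested in sh1 and 99.3% in sh4. Recovered reads of Cdkn1a went from 1744 and 1796 in NC to 649 and 753 in sh1 and 468 and 389 in sh4. Btg2 encodes an antiproliferative protein that takes part in mRNA deadenylation. Its level was 5.59 and 6.66 FPKM in NC, 4.84 and 4.66 in sh1, and 6.30 and 6.28 in sh4. The sh1 libraries were the lowest of the 6, and the sh4 libraries lay between the NC libraries. Btg2 thus had a log2 fold change of -0.30 in sh1 (SE 0.09, adjusted p = 0.011) and 0.04 in sh4 (SE 0.09, interval -0.16 to 0.24, adjusted p = 0.74). The sh1 call was lost without the second NC library (-0.20, adjusted p = 0.12), without the second sh1 library (-0.28, adjusted p = 0.064) and with no filter (adjusted p = 0.055).

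The apoptosis genes Bax and Bbc3 were the most abundant members together with Cdkn1a in NC, and they moved differently. Bax encodes a pore-forming protein of the mitochondrial outer membrane and was the most abundant of the 10 genes in 6 of 6 libraries. Its level was 43.8 and 34.3 FPKM in NC, 53.1 and 56.9 in sh1, and 52.4 and 45.4 in sh4. Both knockdown groups lay above NC, but the nearest NC and sh4 libraries, at 43.8 and 45.4 FPKM, were closer to each other than the NC libraries were. For Bax the log2 fold change was 0.49 in sh1 (SE 0.11, adjusted p = 0.0038) and 0.32 in sh4 (SE 0.11, adjusted p = 0.029). The sh4 call was lost without the second NC library (0.15, adjusted p = 0.14), without the first sh4 library (0.22, adjusted p = 0.18), with no filter (adjusted p = 0.16) and with the variance trend on mean log2 FPKM (adjusted p = 0.077). Without the first NC library the sh4 value was 0.495. The sh1 call was lost with no filter (adjusted p = 0.057), and leaving out the second NC library lowered the value to 0.32. Bbc3 encodes PUMA, a BH3-only protein that promotes Bax activation. Its level was 30.03 and 26.4 FPKM in NC, 22.7 and 21.2 in sh1, and 30.1 and 26.5 in sh4. The sh1 libraries were below all others, and the NC and sh4 libraries covered nearly the same range. For Bbc3 the log2 fold change was -0.35 in sh1 (SE 0.08, adjusted p = 0.0015) and 0.0045 in sh4 (SE 0.08, interval -0.16 to 0.17, adjusted p = 0.96). With no filter on low values the sh1 value missed the threshold (adjusted p = 0.0501).

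**Figure D2:**
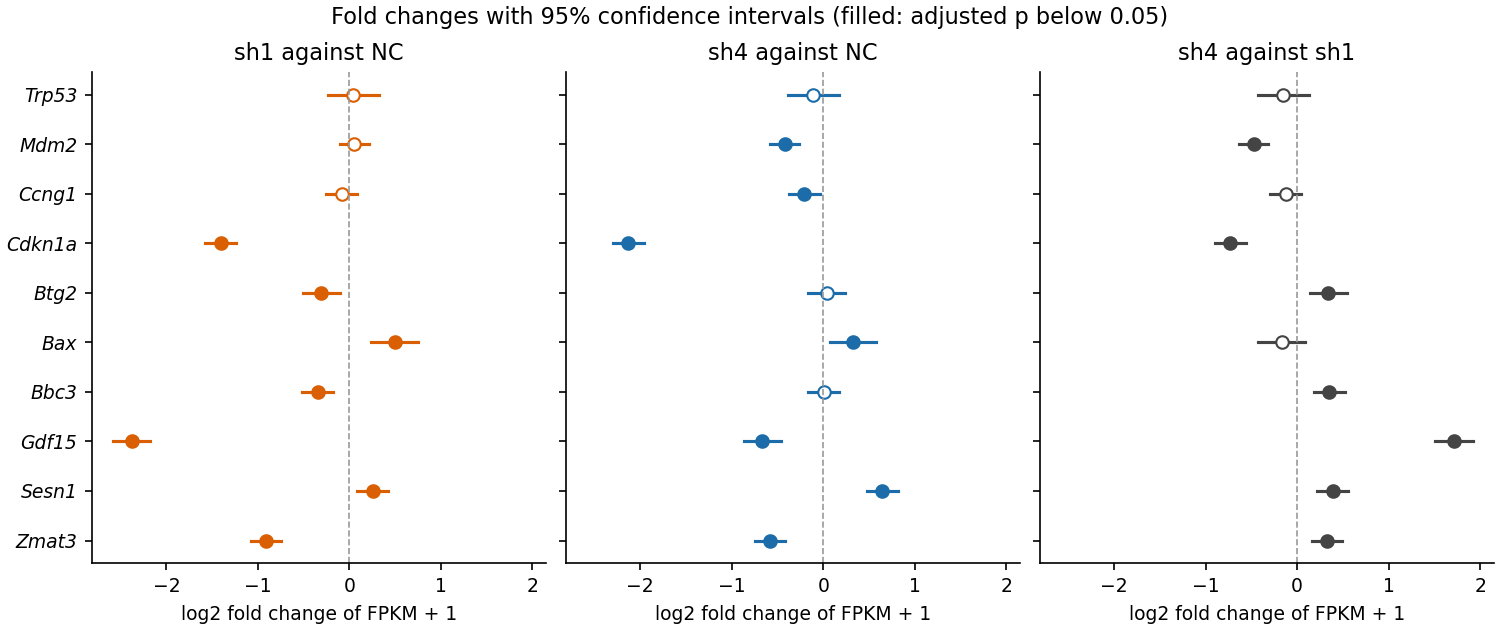
Log2 fold change of FPKM + 1 (x axis) of the 10 genes for sh1 against NC, sh4 against NC and sh4 against sh1. Points are limma estimates from 2 libraries in each group, lines are 95% confidence intervals, and filled points have an adjusted p below 0.05. Cdkn1a is far below 0 in both comparisons with NC, and Gdf15 shows the widest gap between sh1 and sh4.

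The stress response genes Gdf15 and Sesn1 moved in opposite directions. Gdf15 encodes a secreted cytokine of the TGF-beta superfamily that is induced by cell stress. Its level was 11.3 and 11.8 FPKM in NC, 1.45 and 1.35 in sh1, and 7.40 and 6.41 in sh4. The 3 groups did not overlap, with sh1 far below the others. The sh1 libraries held 45 and 44 reads of Gdf15, while NC had 329 and 334, and sh4 had 253 and 218. The log2 fold change was -2.38 in sh1 (SE 0.10, adjusted p = 1.7e-10) and -0.66 in sh4 (SE 0.10, adjusted p = 3.8e-05). With a pseudocount of 0.1 the sh1 value was -2.95, and voom on the recovered reads gave -2.997. Sesn1 encodes a sestrin, which restrains the growth regulator mTORC1. Its level was 4.01 and 3.91 FPKM in NC, 5.11 and 4.72 in sh1, and 6.78 and 6.72 in sh4. The groups did not overlap, with NC lowest and sh4 highest, the reverse of the order of Cdkn1a. Sesn1 had a log2 fold change of 0.25 in sh1 (SE 0.08, adjusted p = 0.012) and 0.64 in sh4 (SE 0.08, adjusted p = 8.2e-06), a mean FPKM ratio of 1.24 and 1.70. The sh1 call was lost without the first sh1 library (0.20, adjusted p = 0.10) and with libraries brought to a common FPKM sum (0.19, adjusted p = 0.065).

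Zmat3, which encodes a zinc finger protein that binds RNA and is known as a p53 target in tumour suppression, fell in both groups. Its level was 6.79 and 7.08 FPKM in NC, 3.15 and 3.31 in sh1, and 3.90 and 4.75 in sh4. The 3 groups did not overlap, with NC highest and sh1 lowest. Zmat3 had a log2 fold change of -0.91 in sh1 (SE 0.07, adjusted p = 1.9e-07) and -0.58 in sh4 (SE 0.07, adjusted p = 1.4e-05), or 2.15-fold and 1.60-fold lower mean FPKM. The gene length recovered for Zmat3 was 11435 bp, the longest of the 10, and its reads ranged from 601 to 1241 per library.

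**Figure D3:**
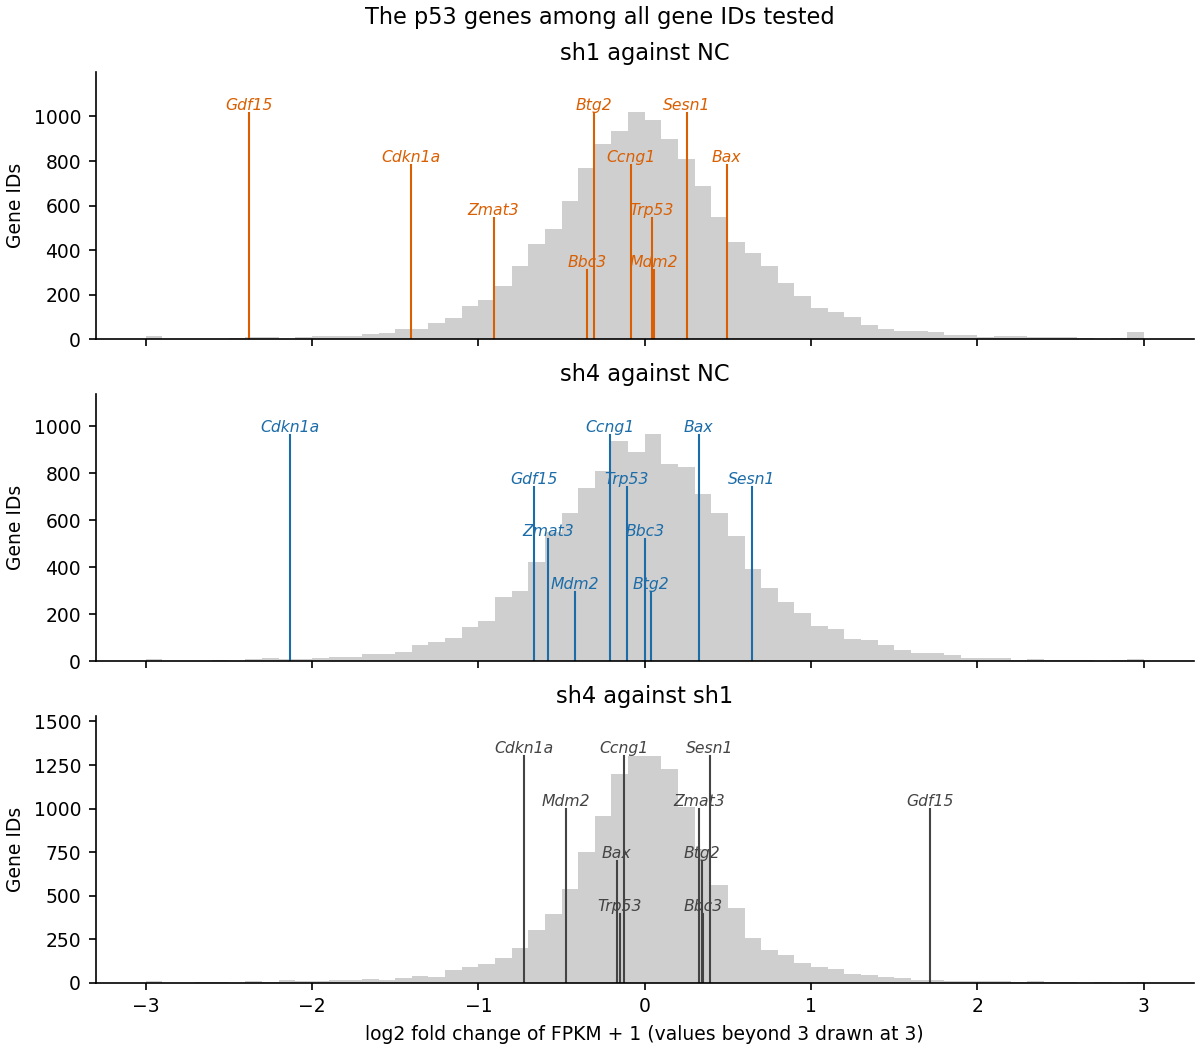
Number of gene IDs (y axis) by log2 fold change of FPKM + 1 (x axis, bins of 0.1) for the 12755 IDs tested, with the 10 genes marked by lines whose heights only separate the names. Most of the genes lie inside the bulk of all IDs. Against NC, Gdf15 and Cdkn1a in sh1 and Cdkn1a in sh4 lie in the lower tail. For sh4 against sh1, Gdf15 lies in the upper tail, with a larger absolute change than 98.5% of IDs.

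Set directly against sh1, the sh4 libraries differed in 7 of the 10 genes, where 56% of all IDs differed. Of these genes, 5 were higher in sh4 (Bbc3, Btg2, Gdf15, Sesn1 and Zmat3) and 2 lower (Cdkn1a and Mdm2), where 29.5% of all IDs were called higher and 26.4% lower. Gdf15 had the largest difference, with 4.93 times the mean FPKM of sh1 in sh4 (log2 fold change 1.72, SE 0.10, adjusted p = 7.2e-09). It was the only one of the 10 genes with a called difference of at least 1 log2 unit, where 6.34% of IDs had one in either direction. Cdkn1a was lower in sh4 (-0.73, SE 0.08, adjusted p = 4.0e-06), as was Mdm2 (-0.47, SE 0.07, adjusted p = 0.00011). Sesn1 was higher in sh4 by 0.39 (SE 0.08, adjusted p = 0.00086), Bbc3 by 0.35 (SE 0.08, adjusted p = 0.0018), Btg2 by 0.34 (SE 0.09, adjusted p = 0.0066) and Zmat3 by 0.33 (SE 0.07, adjusted p = 0.0022). The calls of Bbc3 and Zmat3 were lost with no filter (adjusted p = 0.059 and 0.055). Without the second sh4 library the Zmat3 value was 0.21 (adjusted p = 0.026). Cdkn1a and Gdf15 thus had their larger fall in different groups, Cdkn1a in sh4 and Gdf15 in sh1. The 3 other genes did not pass the test, with differences of -0.15 for Trp53 (interval -0.43 to 0.13), -0.13 for Ccng1 (-0.29 to 0.04) and -0.17 for Bax (-0.42 to 0.09). With libraries brought to a common FPKM sum these differences were -0.0824 for Trp53, -0.0146 for Ccng1 and -0.0489 for Bax, and leaving out 1 library gave -0.19 to -0.06 for Ccng1 and -0.27 to -0.07 for Bax, none past the threshold. The libraries of sh1 and sh4 did not overlap for 10 of the 10 genes, and the same held for 78% of all IDs.

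The order of the levels changed between groups, and FPKM allows it to be read because it is per length. In NC the order from high to low was Bax, Cdkn1a, Bbc3, Gdf15, Ccng1, Mdm2, Zmat3, Btg2, Sesn1 and Trp53, and no neighbours overlapped between their libraries. In sh1, Bbc3 and Cdkn1a changed places and Gdf15 was at rank 9, where its libraries overlapped those of Trp53. Sesn1 and Btg2 also overlapped in sh1. In sh4, Gdf15, Sesn1, Cdkn1a, Btg2 and Mdm2 lay between 6.09 and 6.91 FPKM on average, and each overlapped its neighbour in that order. Cdkn1a was thus at rank 2 in NC, 3 in sh1 and 6 in sh4. The ratio of Cdkn1a to Bax FPKM was 0.710 and 0.961 in NC, 0.206 and 0.211 in sh1, and 0.136 and 0.132 in sh4. That ratio is free of the scaling between libraries, and its 3 groups did not overlap.

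Over the 6 libraries, the member whose log2(FPKM + 1) was most like that of Cdkn1a was Ccng1 (Pearson r = 0.76), followed by Zmat3 (0.73), and the most opposed was Sesn1 (-0.95). For Trp53 the closest was Ccng1 (0.69) and the most opposed Bbc3 (-0.71). The libraries fall into 3 groups and all genes of a library share its scaling, so these values only describe the pattern and carry no test.

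**Figure D4:**
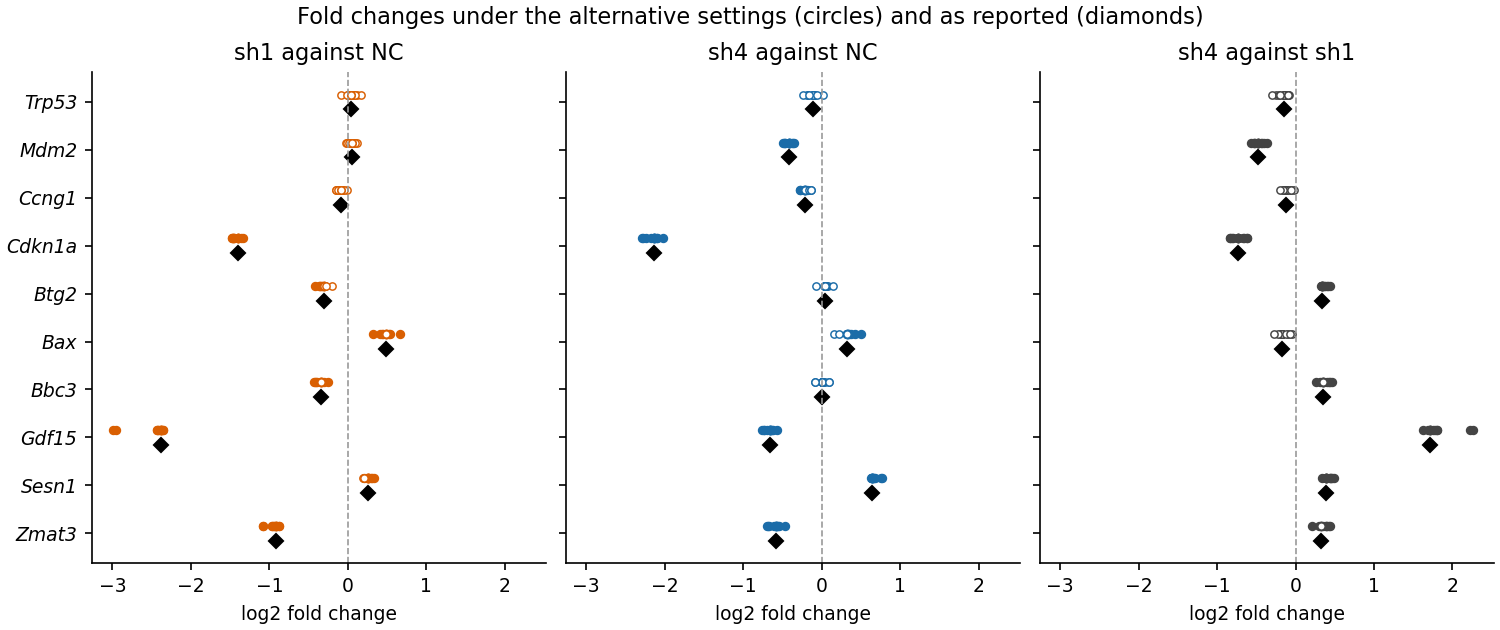
Log2 fold change (x axis) of the 10 genes as reported (diamonds) and under each alternative processing (circles, filled where the adjusted p is below 0.05), in the 3 comparisons. Against NC, the circles of Cdkn1a, Gdf15, Zmat3, Mdm2 and Sesn1 in sh4 and of Cdkn1a, Gdf15 and Zmat3 in sh1 are filled throughout. Those of Bax and Ccng1 in sh4 and of Bax, Bbc3, Btg2 and Sesn1 in sh1 are mixed. For sh4 against sh1 those of Bbc3 and Zmat3 are mixed.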

How the data were processed

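RNA-seq libraries of NC, sh1 and sh4 (2 each) were analysed. The authors deposited 1 FPKM value per gene ID and library, per the file headers. HISAT2 2.0.5 and hg18 are listed in the submitters' processing notes. Counter, annotation and filters are not stated in the labels or files. Whole reads and gene lengths rebuilt the deposited FPKM of 25747 of 25747 IDs above 0 within a tolerance of 1e-06 FPKM plus 1e-07 times the value. Their denominators matched size factors of the median-of-ratios kind up to 1 constant (largest departure 1.06e-09%), so the deposited values are already scaled between libraries.

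The filter asked for 2 or more libraries with at least 1 FPKM, and 12755 IDs, all 10 genes among them, entered a limma 3.58.1 fit (R 4.3.3) on log2(FPKM + 1), with 3 residual degrees of freedom, robust variances and a variance trend on mean recovered reads. The Benjamini-Hochberg adjustment ran over all IDs within each of the 3 comparisons, at a threshold of 0.05. The files give IDs only, and the 10 symbols came with the choice of these IDs, not from the name tables. All 10 genes are named; other genes were to be named from 7 pathway lists (116 symbols, 10 of them the genes here), of which 0 matched an ID in the name tables used, so no other gene was analysed. The genes and lists were chosen with earlier results of these data known. Alternatives were another pseudocount (0.1), no filter or a mean of at least 5 FPKM, total-read scaling, rescaling to the mean FPKM sum, the replicate number as a block, a variance trend on mean log2 FPKM, voom on recovered reads, and leaving out each library.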

Additional observations from a re-analysis of the deposited data

Results flagged for a closer look

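For 7 of the 10 genes limma's direct test of sh4 against sh1 found unequal effects of the knockdown groups. The signed log2 difference, sh4 minus sh1, was 1.72 for Gdf15, 0.39 for Sesn1, 0.35 for Bbc3, 0.34 for Btg2 and 0.33 for Zmat3. The same difference was -0.73 for Cdkn1a and -0.47 for Mdm2. Of all IDs tested, 56% differed by the same test, so 7 of 10 is close to the share found anywhere in the table. With 2 libraries a group, single libraries were not tested for standing apart.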

How the results depend on the processing

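Direction and call were kept in 387 of 414 tests of the 10 genes in 3 comparisons under 14 alternatives; a called value reversed in 0 of them, 17 lost the call and 10 turned the sign of a value that had not been called. The mean filter of 5 FPKM removed Trp53 and Zmat3. With no filter, 4 genes instead of 7 were called for sh1 against NC. Over the whole table, 8202 of 25747 IDs were called with no filter, instead of 8361 of 12755. The cause was not tested. For that comparison, total-read scaling gave -0.0023 for Mdm2, and rescaling to the FPKM sum gave -0.0171 for Mdm2 and -0.0005 for Trp53, none of them called. Fits that leave out 1 library give the single library left in its group the spread estimated from the remaining groups. The calls of these 6 fits enter the totals above and rest on that borrowed spread. The number of called genes in each such fit is not given. For sh1 against NC, leaving out 1 library gave -0.0824 to 0.1664 for Trp53 and -0.0157 to 0.1217 for Mdm2. For sh4 it gave -0.2319 to 0.0169 for Trp53, -0.0713 to 0.1455 for Btg2 and -0.0852 to 0.0941 for Bbc3. With the replicate block 7 genes were called in each comparison, and no call of the 10 genes changed. Same-numbered libraries deviated together with a correlation of -0.014 (sh1 with NC), 0.122 (sh4 with NC) and -0.021 (sh4 with sh1), and the labels attach no batch to the number. Under the other scalings the median fold change of all IDs was at most 0.10 log2 units in size, for sh4 against sh1. Depth was lowest for Gdf15 in sh1, with 45 and 44 reads, and for Trp53, with 67 to 99 reads per library.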

Other observations

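The place of single genes among all IDs moved with the group. Gdf15 had a higher mean FPKM than 63.8% of the IDs tested in NC, 12.7% in sh1 and 49.4% in sh4. Cdkn1a was above 86.9% of IDs in NC, 64% in sh1 and 48% in sh4, and Zmat3 above 49.5%, 29.3% and 36.8%. Trp53 was above 11.5%, 11.4% and 8.6% of IDs in NC, sh1 and sh4. Bax stayed between 89.5% and 93.2%, and Bbc3 between 80.7% and 85%.

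Replicates of these genes were not equally close. Bax differed by 0.34 in log2(FPKM + 1) between the NC libraries, with 1089 and 829 reads, and Trp53 by 0.25, beside a median absolute difference of 0.082 over all IDs. Sesn1 differed by 0.027 there. In sh4, Zmat3 and Cdkn1a differed by 0.23 and 0.22 in size, in opposite directions.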
